A study of Mus musculus with 2 samples.

Results

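The genes described are the core of the NF-kB pathway: the subunits Rela, Relb, Nfkb1 and Nfkb2, the inhibitors Nfkbia, Nfkbib and Nfkbie, the kinase gene Ikbkb and the feedback genes Tnfaip3 and Birc3. They were chosen by symbol: every probe set to which the platform annotation gives a single gene symbol, and that symbol is one of these 10. This gave 17 probe sets for 9 genes, of 22690 probe sets in all. Nfkb1 had no such probe set and was not analysed here. RNA came from NIH 3T3 cells, fibroblasts of a line established from mouse embryos, and each group was 1 Affymetrix array. The ATCE1-C-del group carried a pHA-CMV plasmid for ATCE1 without its C-terminus, described as its nuclear form. ATCE1 is a bZIP factor of the CREB family, now called Creb3l4. The empty vector group carried pHA-CMV with no insert. The viral CMV promoter of this plasmid is active in most cell types. In both groups the plasmid was delivered with Lipofectamine, and RNA was extracted at 48 hours. The sources used here do not give the number of cultures behind an array or the share of cells that took up plasmid. Cells of the same culture with and without plasmid are therefore read together, and a change in few cells and a smaller change in all cells cannot be told apart.

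NF-kB is a family of dimeric transcription factors that in resting cells is held in the cytoplasm by IkB proteins. Signals from TNF, interleukin 1 or Toll-like receptors activate the IkB kinase, IKK, which marks IkB for ubiquitination and degradation and so frees the dimers to enter the nucleus. In fibroblasts the freed dimers induce chemokines, cytokines and survival genes, and also their own inhibitors, so that the response is limited by feedback. A slower, alternative route uses Relb and the product of Nfkb2. NF-kB is controlled mainly at the protein level, and the arrays measured only RNA.

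A single array per group leaves no replicate error and allows no test, so every value below describes these 2 arrays. Signals are MAS5 values in arbitrary units. A signal under 77.4, the higher of both array medians, was raised to that floor before a ratio was taken, because low MAS5 signals scatter widely. A probe set counts as measured if it reached the floor on at least 1 array. Of the 17 probe sets 11 were measured, all of them on both arrays, and they stand for 7 of the 9 genes. The 6 others lay under the floor on both arrays. Only 4 of the 11 measured probe sets, read for Nfkbia, Relb and Ikbkb, have names without a suffix (a, s or x) that marks possible matches to several transcripts. All 11 fibroblast markers looked at were measured, against 1 of 9 macrophage and lymphocyte markers (Cd68, at 81.5 with ATCE1-C-del against 50.8 with empty vector) and 0 of 9 endothelial and epithelial markers. The probe set of Creb3l4 lay under the floor on both arrays, at 18 and 20.7, and where its probes lie relative to the insert was not given, so it does not check the labels.

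Relative to the average gene, no core gene that could be measured differed by 1.5-fold between the arrays. Where a gene had several probe sets, its brightest stands for it. On that basis 4 of the 7 measured genes had the higher signal on the ATCE1-C-del array and 3 the lower. Of all 6785 measured genes, 3294 were higher and 3491 lower. The log2 ratios of the 7 had a median of 0.09, beside -0.01 over all measured genes. The sign of that median rested on which genes entered: it was -0.23 with no floor, over 9 genes, and -0.25 over the 3 genes left without suffixed probe sets. None of the 7 reached 1.5-fold in either direction, a size that 0.884% of all measured genes passed as higher and 1.08% as lower. At a log2 ratio of 0.32 in size, a lower threshold, Birc3 and Nfkbib were higher and Nfkbia lower, so 2 and 1 of 7, where the shares of all measured genes were 6.63% and 7.91%. Counted by probe set, 0 of 11 reached 1.5-fold, against 1.08% higher and 1.4% lower among all 11586 measured probe sets. At 0.32 in log2 ratio, 3 of 11 were higher and 2 lower, against 7.59% and 8.42%. The genes thus spread to both sides of 0, and 7 genes are too few for such shares to say more.

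**Figure D1:**
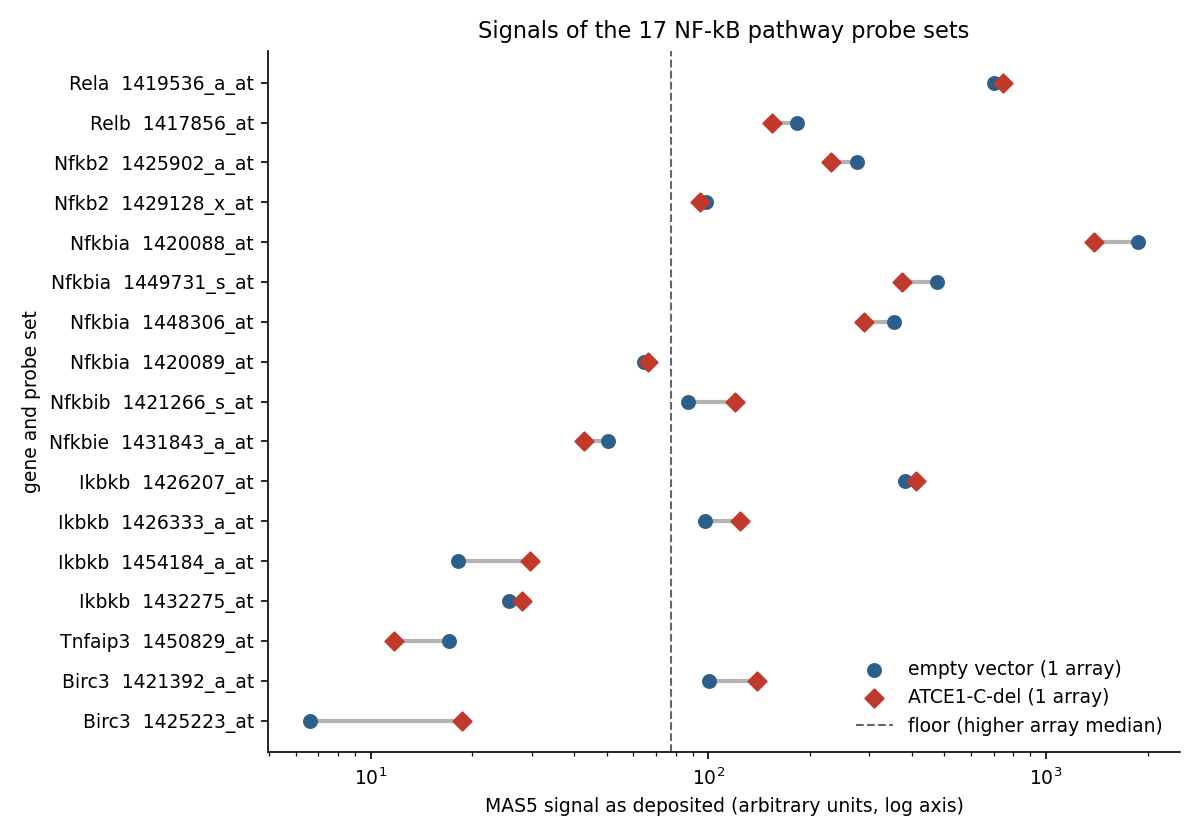
Deposited MAS5 signals (log axis, arbitrary units) of all 17 probe sets on the ATCE1-C-del array (diamonds) and the empty vector array (circles), 1 array each, with no error bars because there are no replicates. The 3 Nfkbia probe sets right of the dashed floor at 77.4 all have the lower signal with ATCE1-C-del, and the 6 probe sets left of it give no ratio.

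Nfkbia encodes IkB alpha, an inhibitor that NF-kB itself induces and that helps to end a response by carrying the dimers back out of the nucleus. It had 4 probe sets. Probe set 1420088_at read 1388.7 with ATCE1-C-del against 1878.4 with empty vector, 1.35-fold lower (log2 ratio -0.44). Probe set 1449731_s_at read 375.7 against 475.4, 1.27-fold lower (-0.34). Probe set 1448306_at read 289.9 against 354.1, 1.22-fold lower (-0.29). The 3 measured probe sets thus lay on the same side, with a median log2 ratio of -0.34 and an SD between probe sets of 0.07. The suffix of 1449731_s_at marks possible matches to other transcripts, and without this probe set the median was -0.36. The fourth, 1420089_at, lay under the floor at 66.3 and 64.5 and gives no ratio.

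Agreement between probe sets was the only repeat of a measurement on these arrays. All probe sets of a gene were read on the same pair of arrays, so it covers differences between probes, not the variation between cultures, labelling reactions or hybridisations. Across 2440 genes with a pair of probe sets measured on both arrays, the spread between them came to an SD of 0.20 for the log2 ratio of 1 probe set. Of 588 genes with exactly 3 measured probe sets, 102 (17.3%) had all 3 lower with ATCE1-C-del, as Nfkbia did. Ordered by the least lowered of the 3, which for Nfkbia was -0.29, 4 of the 588 genes (0.68%), Nfkbia among them, lay at or below that value. Ordered by the median of the 3, 20 genes lay at or below that of Nfkbia. Both orderings were chosen after the values of Nfkbia were seen.

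The scatter between the arrays depended on brightness, so each ratio was also set beside those of the 1000 measured probe sets closest in mean signal. For 1420088_at the middle 95% of these ran from -0.34 to 0.34, and its own -0.44 lay outside, with 1.4% of them lower still. For 1449731_s_at the range was -0.54 to 0.39 and for 1448306_at -0.53 to 0.43, and both ratios lay inside. All 10 measured probe sets other than 1420088_at lay inside their ranges.

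**Figure D2:**
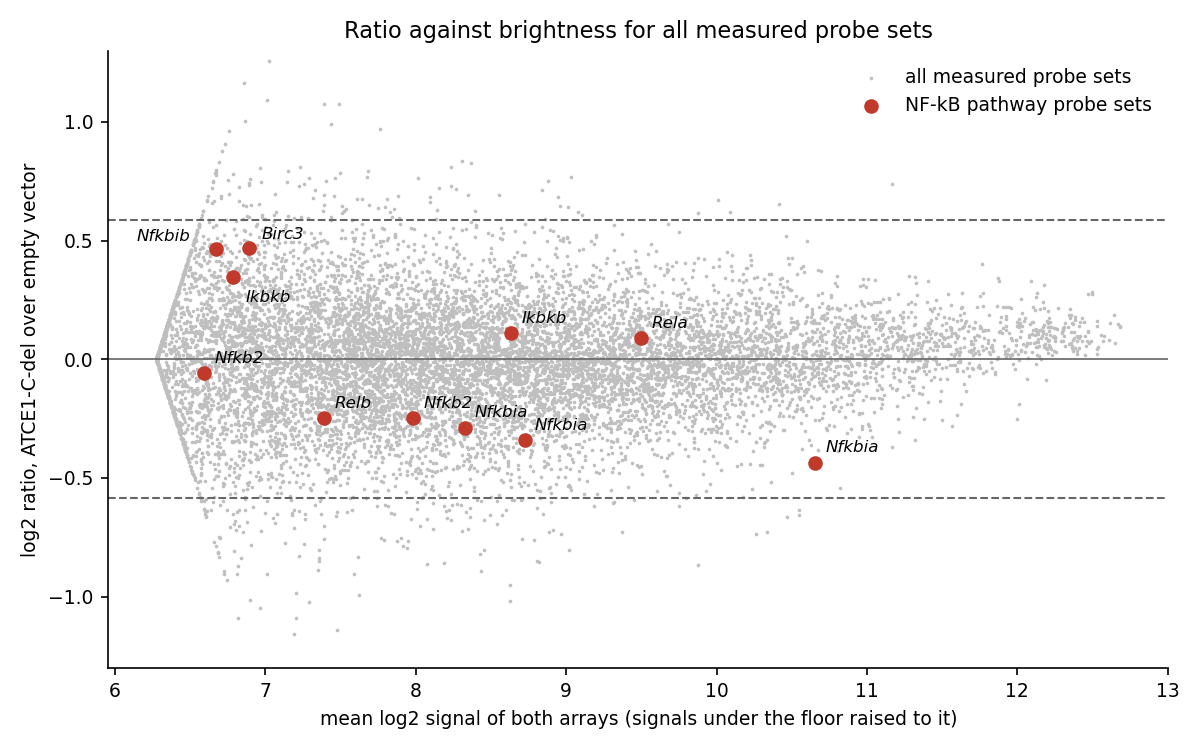
Log2 ratio (ATCE1-C-del over the control array) against mean log2 signal for all 11586 measured probe sets (grey) and the 11 NF-kB pathway probe sets (red, with gene names), with dashed lines at 1.5-fold and 3 grey points beyond the drawn range of 1.3. The bright Nfkbia probe set, at -0.44, lies below most points of its brightness, while Birc3 and Nfkbib, at 0.47 and 0.46, lie where the points scatter widely.

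The promoter of Nfkbia is shown because its kappa B sites are a textbook case of NF-kB feedback. Beside it stand those of Nfkb2, also lower relative to the average gene, and Birc3, which was higher. Whether matches go with the direction of a ratio was not tested. Each run below holds the 250 bases before the annotated start, 5′ to 3′ on the gene's strand, from RefSeq (GRCm38.p6), with matches to the kappa B consensus in capitals. The Nfkbia run is chr12:55492648-55492897 (minus strand), the Nfkb2 run chr19:46304487-46304736 (plus strand) and the Birc3 run chr9:7873171-7873420 (minus strand).
Nfkbia: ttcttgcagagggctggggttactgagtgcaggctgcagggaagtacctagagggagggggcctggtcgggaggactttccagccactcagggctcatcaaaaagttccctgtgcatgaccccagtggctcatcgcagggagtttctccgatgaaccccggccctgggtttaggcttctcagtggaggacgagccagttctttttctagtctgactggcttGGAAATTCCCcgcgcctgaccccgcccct
Nfkb2: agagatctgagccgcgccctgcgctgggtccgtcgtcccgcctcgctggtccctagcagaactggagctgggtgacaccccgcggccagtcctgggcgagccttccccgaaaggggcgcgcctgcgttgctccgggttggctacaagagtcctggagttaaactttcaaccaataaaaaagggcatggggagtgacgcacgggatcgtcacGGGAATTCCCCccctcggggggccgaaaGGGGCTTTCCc
Birc3: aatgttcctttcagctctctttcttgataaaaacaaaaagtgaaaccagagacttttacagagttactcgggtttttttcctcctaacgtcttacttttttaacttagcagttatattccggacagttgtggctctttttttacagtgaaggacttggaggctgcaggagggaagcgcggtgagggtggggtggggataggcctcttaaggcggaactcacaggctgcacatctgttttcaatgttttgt

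The Nfkbia run held 1 match, on the opposite strand at positions -29 to -20 counted from the start. The Nfkb2 run held matches in 2 stretches, from -39 to -29, where matches on both strands overlap, and from -11 to -2. Of the listed starts of Nfkb2 it is the one with the most matches, 4 against 1 before each of the others. The Birc3 run held none. Windows of 300 bases, from 250 before to 50 after a start, were listed for 7 of the 10 genes (10 windows, as Nfkb2 and Tnfaip3 have several starts). The consensus, searched on both strands, was found in 6 of the 10 windows and in 4 of the 7 genes: Nfkbia, Nfkb2, Nfkbie and Tnfaip3. Of all 32851 windows 8.46% held it, and of all 27025 genes 9.55%. Some Nfkb2 windows overlap and share a match. The cAMP response element TGACGTCA, to which CREB proteins bind, was in 0 of the 10 windows and in 1.79% of all. Its core TGACG, which lies within the full element, was in 4 windows, of Nfkb2, Nfkbib and Tnfaip3, and in 20.8% of all. A match is a run of letters, not evidence of binding, and a missing match says only that these letters are not in this window.

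Nfkbib and Nfkbie encode IkB beta and IkB epsilon, inhibitors that hold NF-kB with slower kinetics than IkB alpha. The only probe set of Nfkbib, 1421266_s_at, read 119.7 with ATCE1-C-del against 86.8 with empty vector, 1.38-fold higher (0.46). Its sign was therefore opposite to that of Nfkbia. At this low signal the 1000 closest probe sets ranged from -0.65 to 0.63 in their middle 95%, and 8.1% of them were higher still. The suffix of its name marks a probe set that can match transcripts of other genes too. Nfkbie was under the floor, at 42.9 and 50.4, on its single probe set 1431843_a_at.

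Among the subunits, Rela, the main transactivating subunit of the classical route, was near level: 744.9 with ATCE1-C-del against 700.0 with empty vector, 1.06-fold higher (0.09). The subunits of the alternative route were both lower relative to the average gene, and near level when the arrays were scaled to hybridisation controls. Relb, on its only probe set 1417856_at, read 154.0 against 183.0, 1.19-fold lower (-0.25). Nfkb2, which encodes an IkB-like precursor that is cut to a DNA-binding subunit, read 231.6 against 275.0 on 1425902_a_at, also 1.19-fold lower (-0.25). Its other probe set, 1429128_x_at, read 94.6 against 98.5 (-0.06). Ratios as large as those of Relb and Nfkb2 were common: 25.7% and 25.9% of all measured probe sets lay further from 0.

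Ikbkb encodes IKK beta, the catalytic subunit that phosphorylates IkB in the classical route. Its probe set 1426207_at read 412.9 with ATCE1-C-del against 382.9 with empty vector, 1.08-fold higher (0.11). A dimmer one, 1426333_a_at, read 124.5 against 97.9, 1.27-fold higher (0.35). The remaining probe sets, 1454184_a_at at 29.7 and 18.1 and 1432275_at at 28.0 and 25.7, were under the floor on both arrays. The measured probe sets of Ikbkb thus both lay above 0, the dimmer one further out.

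Birc3 encodes an inhibitor of apoptosis that works as a ubiquitin ligase in TNF receptor complexes and is itself an NF-kB target. On 1421392_a_at it read 139.6 with ATCE1-C-del against 100.7 with empty vector, 1.39-fold higher (0.47), and 5.66% of all measured probe sets lay further from 0. Among the 1000 closest in signal, 6% were higher still. The other Birc3 probe set, 1425223_at, was under the floor at 18.7 and 6.6. Tnfaip3, the ubiquitin-editing enzyme that shuts off signalling to IKK, lay far under the floor at 11.7 and 17 on its only probe set, so that the response of this feedback gene was not measurable on these arrays. Birc3 and Nfkbia, both targets of NF-kB, thus had opposite signs. The Birc3 ratio rests on 1 suffixed probe set and lay inside the middle 95% at like signal, -0.64 to 0.60.

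All these directions are relative to the average gene. The 18 probe sets for hybridisation controls, RNA spiked in just before the arrays were hybridised, had a mean log2 ratio of -0.27 and a median of -0.25. Scaling the arrays to that mean moved the median of all measured genes to 0.26. On that scale Nfkbia was lower, at -0.16, and Relb and Nfkb2 were near level, at 0.02 and 0.03. Scaled to the median of the controls instead, a choice made after the data were seen, they stood at -0.0026 and -0.0014 and Nfkbia at -0.19, so Relb and Nfkb2 have no settled sign against the controls. With the mean of the controls Birc3 reached 0.74 and Nfkbib at least 0.63, so that 2 genes passed 1.5-fold, and the median of the 7 became 0.36. The share of all genes past 1.5-fold on that scale is not given here. Under signals as deposited, array medians, quantile normalization and lowess the sign of each of the 7 genes was the one given above.

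**Figure D3:**
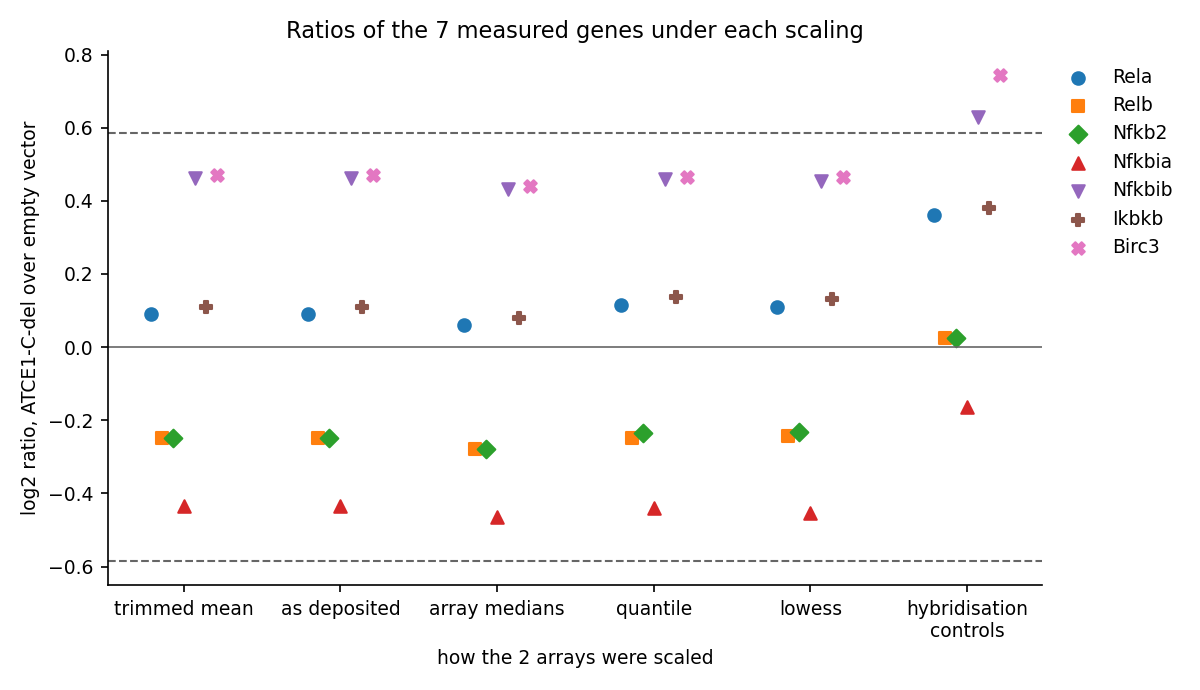
Log2 ratio (ATCE1-C-del over the control array, brightest probe set) for the 7 measured genes under 6 ways of scaling the arrays, with dashed lines at 1.5-fold. Nfkbia is the lowest of the 7 under each scaling, from -0.47 to -0.16, and of the 6 only scaling to the mean of the hybridisation controls lifts Birc3 and Nfkbib past the upper line and brings Relb and Nfkb2 near 0, at 0.02 and 0.03.

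The rest of the pathway was read from 5 lists by role, which hold 97 symbols (Skp1 by an older and a newer one), 83 of them named on the arrays and 60 measured. Of the 60, 25 were higher and 35 lower, beside 3294 and 3491 of all 6785 measured genes, and the log2 ratios had a median of -0.02. On both arrays 57 of the 60 reached the floor, and where only 1 array did, the floor fixed the sign. Of the 60, 2 passed 1.5-fold as higher and 1 as lower, beside 0.884% and 1.08% of all measured genes. Both higher ones were inducible targets, and the lower one a ubiquitin ligase. Ranges at like signal are given for the core genes only, and dim probe sets of these lists scatter widely too. List medians are again relative to the average gene: scaled to the mean of the hybridisation controls, the 4 that were under 0 became 0.14 for other subunits, 0.18 for kinases, 0.25 for receptors and 0.21 for ubiquitin enzymes, and that of the targets became 0.36.

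Of the other subunits and nuclear IkB proteins, 3 of 4 named genes were measured and 0 reached 0.32 in log2 ratio, with a median of -0.13. The shares of all measured genes at that size were 6.63% higher and 7.91% lower, and 3 genes are too few to compare. Nfkbiz, an inducible nuclear IkB protein that promotes transcription of secondary response genes, read 113.5 with ATCE1-C-del against 140.1 with empty vector (-0.30). Bcl3, another nuclear IkB protein, read 160.6 against 175.5 (-0.13), and Nfkbil1 122.3 against 105.1 (0.22). Rel, the subunit typical of lymphocytes, was under the floor at 15.4 and 14.5.

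Of the kinases at and above IKK, 11 of 13 named genes were measured, 10 lower and 1 higher, with a median of -0.09, and 0 reached 0.32 in log2 ratio. Of all 6785 measured genes 3491 were lower, and 6.63% reached that size as higher and 7.91% as lower. With 11 genes a count of 0 says little. Ikbke, among the 10, reached the floor with empty vector only, at 71 with ATCE1-C-del against 78.8. The floor thus fixed its sign as lower. The lowest was Csnk2a1, the catalytic subunit of casein kinase II, which also phosphorylates IkB alpha, at 335.9 against 416.6 (-0.31), but its other probe sets ran from -0.48 to 0.24. Irak1, a kinase of interleukin 1 and Toll-like receptors, was at -0.26, with others from -0.22 to 0.10, and Map3k3 was at -0.21, with its other at -0.34. Map3k14, the kinase that drives the alternative route, was the 1 higher gene at 0.15, and its other probe set went the opposite way at -0.10. Ikbkg, the regulatory subunit of IKK, read 195.1 against 196.6 (-0.01), with others from -0.30 to 0.47. The kinase transcripts thus differed by small amounts, and several had probe sets that disagreed in sign.

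Of the receptors and adaptors, 15 of 18 named genes were measured, 7 higher and 8 lower, with a median of -0.02. At 0.32 in log2 ratio 1 was higher and 1 lower, where the shares of all measured genes were 6.63% and 7.91%. Tlr2 and Birc2, both rounded to -0.32 below, fell just short of that size. Tnfrsf12a, the receptor for TWEAK and an activator of the alternative route, was highest at 937.4 against 708.9, 1.32-fold (0.40), and its other probe set stood at 0.77. Il1rap, the accessory chain of the interleukin 1 receptor, was lowest at 390.3 against 497.9, 1.28-fold (-0.35), with its other probe set at -0.13. Tlr2 read 87.4 against 109.1 (-0.32). Birc2, the close relative of Birc3 and likewise a ligase of TNF receptor complexes, read 124.7 against 155.4 (-0.32), opposite in sign to Birc3. The TNF receptor gene Tnfrsf1a was near level, at 1114.1 against 1014.5 (0.14).

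Of the genes for ubiquitin editing and IkB degradation, 14 of 15 named ones were measured, 4 higher and 10 lower, with a median of -0.06. Itch, a ubiquitin ligase that works with Tnfaip3, was the 1 past 1.5-fold, at 129.8 against 198.7, 1.53-fold lower (-0.61), on a single probe set. Fbxw11, a receptor subunit of the ligase that recognises phosphorylated IkB, was 1.43-fold lower (-0.52) on its brightest probe set, but its others stood at 0.19 and 0.23. Tnip1, a partner of Tnfaip3 and an NF-kB target, read 251.3 against 344.0, 1.37-fold lower (-0.45), on its only measured probe set. Commd1, which promotes turnover of Rela, was 1.32-fold higher (0.40) on the brighter of its probe sets and stood at 0.18 on the other.

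Of the inducible targets, 17 of 33 named genes were measured, 12 higher and 5 lower, with a median of 0.12. Only 15 of the 17 reached the floor on both arrays. Il6 and Lif, counted among the 12, reached it with ATCE1-C-del only, so the floor fixed their sign as higher. At 0.32 in log2 ratio 5 of the 17 were higher and 0 lower, where the shares of all measured genes were 6.63% and 7.91%. Ccl5, a chemokine that attracts T cells, read 401.6 with ATCE1-C-del against 90.6 with empty vector, 4.43-fold higher, and Ptgs2, cyclooxygenase, 365.4 against 221.9, 1.65-fold higher (0.72). The second Ptgs2 probe set stood at 0.97. The early response gene Ier3 read 429.4 against 330.0 (0.38) and Myc 331.8 against 256.9 (0.37). Ccnd1 just passed 0.32, at 519.7 against 413.4 (0.33), and its other probe sets ran from -0.07 to 0.40. The lowest ratios among the targets were those of Irf1 and Cflar, which did not reach 0.32: Irf1 read 333.5 against 402.6 (-0.27) and Cflar 165.4 against 201.8 (-0.29), with its other probe set at -0.31. Il6 and Lif, both cytokines, reached the floor with ATCE1-C-del only, at 88.6 against 39.6 and 78.6 against 25.1. The chemokine Cxcl10 was under the floor on both arrays, at 57.2 against 13.4. Other targets under the floor read higher or lower with ATCE1-C-del, and none of them gives a ratio. Irf1, Cflar, Il6, Lif, Cxcl10 and Ccnd1 were named after their values were seen. The list of targets, with Ccl5 and Ptgs2 in it, was chosen with earlier results of these data known, so its balance is description only. More of the measured targets were higher than lower, with Il6 and Lif counted as higher by the floor, and those past 0.32 were all higher. At that size the core had 2 higher and 1 lower, and the ubiquitin list 3 higher and 3 lower. Many of these targets also respond to other factors than NF-kB.

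**Figure D4:**
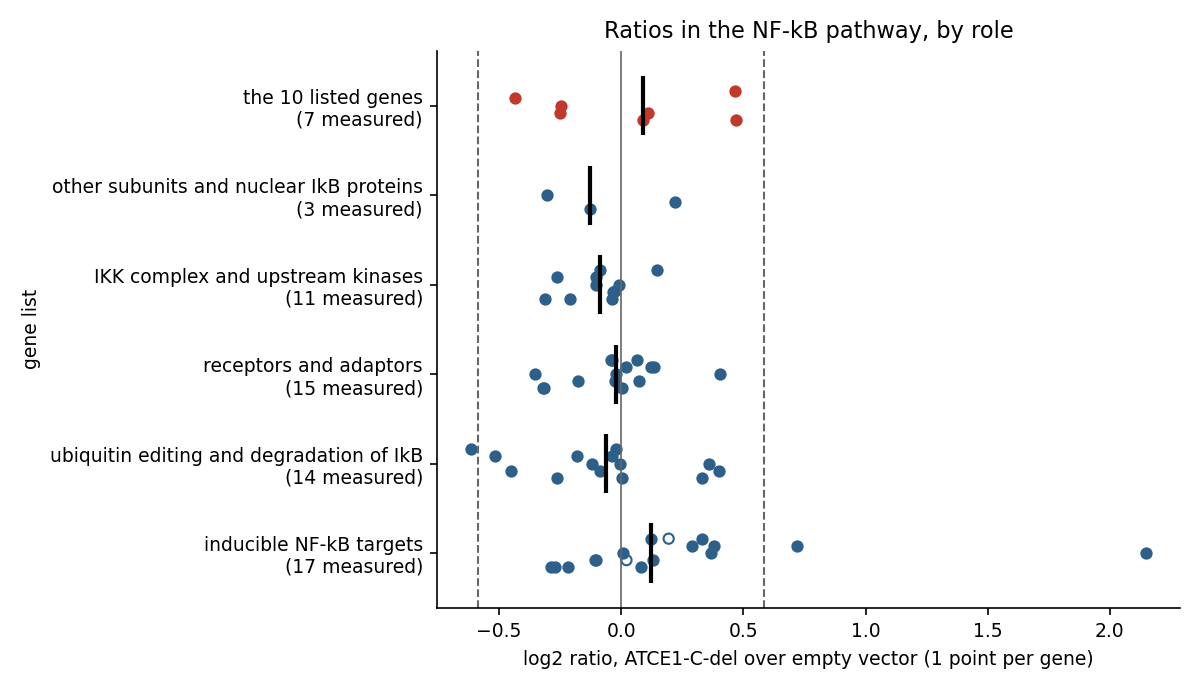
Log2 ratio (ATCE1-C-del over the control array), 1 point per measured gene, for the 10 listed genes (red) and 5 further lists of the pathway (blue), with open circles where only 1 array reached the floor, black bars at list medians and dashed lines at 1.5-fold. Ccl5 (2.15), Ptgs2 (0.72) and Itch (-0.61) are the points outside the dashed lines, and the medians run from -0.13 to 0.12 on this scale, which sets the average gene near 0.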

How the data were processed

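MAS5 made the intensity values that the authors deposited, per the submitters' processing notes (no version), and the values show a linear scale. A target value or detection call was not given in the sources used here. Without the lowest and highest 2% of its 22690 probe sets, each array already had a mean of 250.1, by which it was divided. Signals under the higher array median (77.4) were raised to that 1 floor, which keeps the sign of a ratio that of the signals, and the log2 ratio was taken. Of the probe sets, 20393 had 1 symbol in the platform annotation, 691 had several and 1606 had none. These figures include the 64 control probe sets, which stayed out of the floor and of counts of measured probe sets and genes. The named genes were all 10 listed ones, up to 4 genes per pathway list with the largest absolute ratio measured on both arrays, and all past 1.5-fold. Rel, Ikbkg, Ikbke, Tnfrsf1a, Ube2n, Otud7b, Irf1, Cflar, Il6, Lif, Cxcl10 and Ccnd1 were named outside this rule, with their values seen. With 2 arrays no gene can be ranked by likeness of pattern. The members and lists were chosen with earlier results of these data known. The number of arrays limits the precision. The computation of ratios, not their error, was tested on simulated data. Scaling to the hybridisation controls divided each array by their geometric mean. Alternatives covered scaling, floor, probe sets and fold threshold. Protein sequences were not used here. Python 3.11.15, numpy 2.4.6, pandas 2.3.3 and statsmodels 0.14.6 were used.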

Additional observations from a re-analysis of the deposited data

How the results depend on the processing

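The median of the 3 measured Nfkbia probe sets was lower with ATCE1-C-del under all 11 alternatives that gave it a value, from -0.37 to -0.067, the latter with scaling to the mean of the hybridisation controls. The median of the listed genes depended on which of them were measured. It was 0.36 with the mean of the hybridisation controls, -0.23 with the floor at the 25th percentile or with no floor, where 9 genes entered, and -0.25 without probe sets that can match several transcripts, where 3 entered. The count of listed genes past the threshold was 2 with the mean or the median of the hybridisation controls and 3 at a threshold of 0.32 in log2 ratio, and 0 under the other alternatives. The count of their probe sets was 3 with the hybridisation controls, 2 with the floor at the 25th percentile or with no floor, and 5 at 0.32. Of the 5 pathway lists together, 9 genes passed with the hybridisation controls, 6 with the floor at the 25th percentile, 0 at the 75th, 14 with no floor, 13 at 0.32 and 1 at 2-fold. The median of all measured genes was itself 0.26 with the mean of the hybridisation controls, and 12270 genes were measured with no floor. Shares of all genes past the threshold under each scaling or floor are not given here, so the counts in this paragraph cannot be set against other genes. Scaling to the median of the hybridisation controls in place of their mean was chosen after seeing the data: the Nfkbia median was then -0.093 and that of the listed genes 0.34, 2 listed genes and 3 of their probe sets passed, and 7 genes of the pathway lists. Ratios of probe sets near the floor are the least certain. No paired analysis was possible because each group has 1 array, and leaving out a replicate was not possible for the same reason.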
